A study of Mus musculus with 6 samples.

Results

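The LIM-domain genes of the Z-disc and the actin adhesion machinery were followed in nuclei of mouse cardiomyocytes (CMs) that overexpressed (OE) activated YAP. The 10 genes were *Fhl1*, *Fhl2*, *Csrp1*, *Csrp3*, *Ldb3*, *Pdlim3*, *Pdlim5*, *Pdlim7*, *Lpp* and *Zyx*, chosen by name from the 54532 genes in the count table. All 10 were found there by Ensembl ID through the GENCODE release 21 mouse annotation, and all 10 were among the 13323 genes kept after a filter on low values. Wildtype ICR mice received AAV9 under the skin at postnatal day 6, at 1e+11 viral genomes per mouse, and the hearts were taken at day 9, 3 d later. The control group carried a GFP cassette, and the other groups carried YAP5SA or YAP6SA. Every cassette was driven by the cTnT promoter, which restricts expression largely to CMs, so that controls too had virus and a transgene. YAP5SA has alanines in place of the serines that LATS1/2 phosphorylate. YAP6SA has these and a further serine to alanine change that disrupts binding to the TEAD factors. The paper also reports YAP6SA as less nuclear and more cytoplasmic, so the variants did not differ in TEAD binding alone. The part of this difference in the values below was not tested. Of the 2 libraries of a group, 1 belonged to each of the 2 batches that the labels give. Nuclei were pulled down with an antibody to PCM1, a protein on the nuclear surface of CMs, and poly-A RNA of these nuclei was sequenced. The sources do not say how the 2 hearts of each virus relate to the libraries. The p-values therefore rest on the spread between these libraries, taken after the batch term and with information shared across genes.

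LIM domains are zinc-binding protein modules that dock other proteins, and they let their carriers gather on actin filaments, Z-discs and adhesion sites. The Z-disc is the border of the sarcomere, where thin filaments are anchored and where mechanical load is sensed. *Fhl1* and *Fhl2* encode proteins built of LIM domains only. *Csrp1* and *Csrp3* encode small proteins with paired LIM domains, of which *Csrp3* (muscle LIM protein) is the striated muscle form and *Csrp1* the form best known from smooth muscle. *Ldb3* (cypher), *Pdlim3* (ALP), *Pdlim5* (ENH) and *Pdlim7* (enigma) join a PDZ domain, which binds alpha-actinin, to LIM domains. *Zyx* (zyxin) and *Lpp* encode adhesion and stress fiber proteins that respond to tension.

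Start-site sequences are shown for 4 of the genes because the promoters differed in which known elements they held. RefSeq (build GRCm38.p6) gave 17 start-site windows for the 10 genes, and the 250 bases before each start were searched on both strands. The searched elements were the CArG box, which serum response factor binds, the TEAD core GGAATG, the MEF2 box, the TATA element TATAAA and the AP-1 element TGANTCA. No pair of matches in a window overlapped. Each sequence is given on the strand of its gene, 5′ to 3′, with matches in capitals. The *Fhl2* window at chr1:43163962-43164211 (minus strand) lies in an intron of *Fhl2* and holds a CArG box. The *Ldb3* window at chr14:34588682-34588931 (minus strand) holds an AP-1 element and then a CArG box. The *Pdlim3* window at chr8:45885237-45885486 (plus strand) holds the TEAD core on both strands, and 26 of its bases lie in an annotated exon. The *Csrp1* window at chr1:135719813-135720062 (plus strand) held no match and is shown because *Csrp1* had the largest YAP5SA difference of the 10 genes.
*Fhl2*: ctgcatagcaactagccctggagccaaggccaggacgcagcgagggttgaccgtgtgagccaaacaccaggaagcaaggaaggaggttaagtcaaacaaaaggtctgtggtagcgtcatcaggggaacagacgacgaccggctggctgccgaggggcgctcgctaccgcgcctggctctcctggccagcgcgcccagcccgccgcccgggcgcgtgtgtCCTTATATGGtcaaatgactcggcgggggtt
*Ldb3*: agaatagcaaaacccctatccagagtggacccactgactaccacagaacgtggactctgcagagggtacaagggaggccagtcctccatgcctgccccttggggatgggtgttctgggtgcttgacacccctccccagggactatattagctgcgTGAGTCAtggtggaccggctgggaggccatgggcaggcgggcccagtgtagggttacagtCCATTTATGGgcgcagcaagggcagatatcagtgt
*Pdlim3*: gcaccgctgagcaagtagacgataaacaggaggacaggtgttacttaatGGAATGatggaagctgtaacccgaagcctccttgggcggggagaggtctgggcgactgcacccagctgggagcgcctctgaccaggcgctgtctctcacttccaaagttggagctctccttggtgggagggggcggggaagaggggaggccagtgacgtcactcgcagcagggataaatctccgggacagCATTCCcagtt
*Csrp1*: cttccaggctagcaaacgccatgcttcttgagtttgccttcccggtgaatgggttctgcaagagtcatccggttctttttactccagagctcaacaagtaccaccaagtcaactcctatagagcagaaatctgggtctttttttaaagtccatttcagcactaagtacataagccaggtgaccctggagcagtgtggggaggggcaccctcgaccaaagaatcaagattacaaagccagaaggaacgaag

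A CArG box was found in 5 of the 17 windows, in *Fhl1*, *Fhl2* and *Ldb3*, and in 1.47% of all 32851 mouse windows of this length. The 2 *Ldb3* windows overlap each other and share their matches. The TEAD core was found in 2 windows, that of *Pdlim3* and 1 of *Lpp*, against 12.6% of all windows. The AP-1 element was found in 3 windows, of *Ldb3* and *Zyx*, against 6.75%, and TATAAA in 3 windows, of *Fhl1*, *Fhl2* and *Pdlim5*, against 12.4%. The MEF2 box was in 0 windows of these genes and in 0.508% of all windows. These matches describe letters in a window and were not tested against binding.

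Library depth ran from 14552847 to 19615627 gene counts, at which 3 counts amount to 0.153 to 0.199 counts per 1000000 counts (CPM), a floor that covers counting error only. *Yap1* itself was at 139 and 130 CPM in GFP, 122 and 130 in YAP6SA and 138 and 102 in YAP5SA, so its counts did not show the overexpression, and whether reads of the cassettes reach this gene was not tested. The CM genes *Myh6*, *Tnnt2* and *Ryr2* were abundant in every library, at 814 CPM or more. The 10 CM markers summed to 51300 and 68190 CPM in GFP, 49420 and 62990 in YAP6SA, and 43590 and 32030 in YAP5SA. In YAP5SA against GFP, 2 of these 10 markers were called lower and 1 higher. In bulk samples, fewer cells of a type and less RNA per cell cannot be told apart. The mitochondrial genome mRNAs summed to 12000 and 12410 CPM in GFP, 18170 and 23630 in YAP6SA, and 19770 and 27060 in YAP5SA.

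The 10 genes spanned a wide range of levels. Per kilobase of annotated exon in GFP, *Fhl2* was highest with 1449 CPM per kb (range 1422 to 1475, n = 2), followed by *Ldb3* with 350 (337 to 364), *Csrp3* with 250.1 (248 to 253) and *Pdlim5* with 97.1 (81.0 to 113). The ranges of these neighbours did not overlap. *Pdlim3* (34.0), *Pdlim7* (30.5), *Fhl1* (24.9) and *Zyx* (16.5) came next, and each overlapped its neighbour in this order. *Csrp1* had 6.57 CPM per kb (4.94 to 8.20) and *Lpp* 0.876 (0.801 to 0.951), both set apart from the gene above. The *Lpp* value rests on 22.05 kb of annotated exon, the longest of the 10 genes. In YAP6SA the order was that of GFP. In YAP5SA, *Pdlim7* (53.2) and *Fhl1* (48.3) stood above *Pdlim3* (28.6), but the libraries of *Fhl1* and *Pdlim3* overlapped, and those of *Ldb3* and *Csrp3* overlapped as well.

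**Figure D1:**
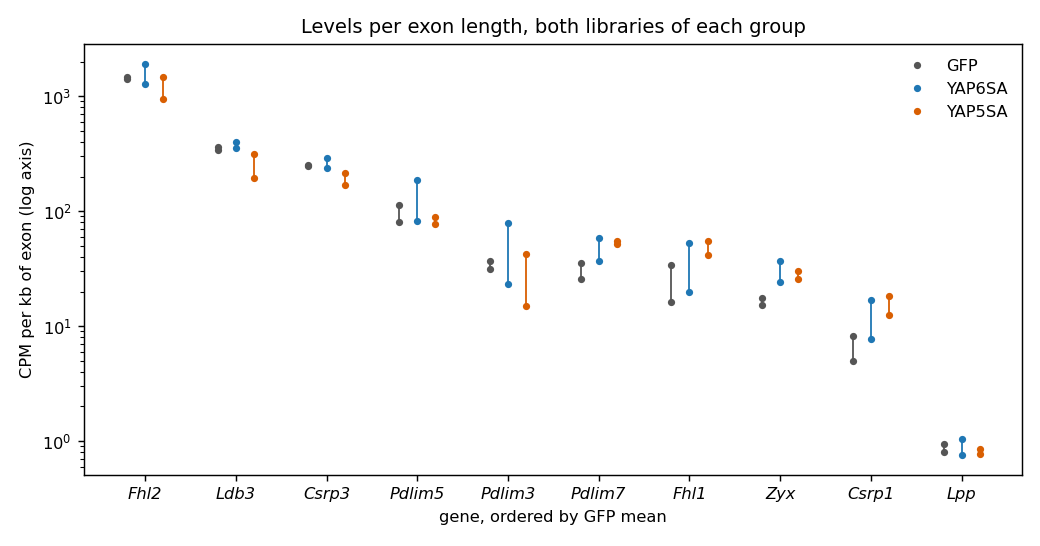
CPM per kb of annotated exon (log axis) for the 10 LIM-domain genes, ordered by their GFP mean, with both libraries of each group as points joined by a line. *Fhl2*, with a GFP mean of 1449, was the highest in all 3 groups and *Lpp*, at 0.876 in GFP, the lowest.

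Among the LIM-only genes, *Fhl1* (ENSMUSG00000023092, chrX:56731787-56793346, plus strand, GRCm38) had 125 and 59.8 CPM in GFP, 196 and 74.1 in YAP6SA, and 205 and 154 in YAP5SA. Both YAP5SA libraries lay above both GFP libraries, while of the YAP6SA libraries 1 lay above both GFP libraries and 1 between them, and in every group the batch 1 library was the higher. *Fhl2* (ENSMUSG00000008136, chr1:43123074-43196984, minus strand), a cardiac partner of titin and of nuclear factors, had 2698 and 2799 CPM in GFP, 3646 and 2439 in YAP6SA, and 2809 and 1809 in YAP5SA. Its libraries overlapped between every pair of groups.

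*Csrp1* (ENSMUSG00000026421, chr1:135720061-135752232, plus strand) had 16.0 and 9.66 CPM in GFP, 33.0 and 15.0 in YAP6SA, and 35.8 and 24.4 in YAP5SA. Both YAP5SA libraries exceeded both GFP libraries, and the batch 2 library of YAP6SA fell within the GFP range. *Csrp3* (ENSMUSG00000030470, chr7:48830398-48848033, minus strand), a Z-disc protein whose loss causes dilated cardiomyopathy in mice, had 675 and 661 CPM in GFP, 777 and 639 in YAP6SA, and 573 and 452 in YAP5SA. Both YAP5SA libraries were below all other libraries for this gene.

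Among the PDZ-LIM genes, *Ldb3* (ENSMUSG00000021798, chr14:34526603-34588682, minus strand), which stabilizes the Z-disc during contraction, had 2220 and 2058 CPM in GFP, 2459 and 2159 in YAP6SA, and 1908 and 1194 in YAP5SA. As for *Csrp3*, both YAP5SA libraries were the lowest. *Pdlim3* (ENSMUSG00000031636, chr8:45885461-45919548, plus strand) had 188 and 162 CPM in GFP, 405 and 119 in YAP6SA, and 218 and 76.4 in YAP5SA. The batch 1 libraries of both YAP groups were above GFP and the batch 2 libraries below it. *Pdlim5* (ENSMUSG00000028273, chr3:142239590-142395696, minus strand), which also tethers kinases, had 1004 and 719 CPM in GFP, 1665 and 735 in YAP6SA, and 797 and 692 in YAP5SA. A single library, YAP6SA of batch 1, stood far above the others. *Pdlim7* (ENSMUSG00000021493, chr13:55495795-55513676, minus strand) had 171 and 125 CPM in GFP, 284 and 177 in YAP6SA, and 265 and 251 in YAP5SA. Every library of both YAP groups was above both GFP libraries.

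*Zyx* (ENSMUSG00000029860, chr6:42349630-42360213, plus strand) had 94.7 and 83.0 CPM in GFP, 201 and 130 in YAP6SA, and 163 and 138 in YAP5SA. Here too, the GFP libraries were below every YAP library. *Lpp* (ENSMUSG00000033306, chr16:24393507-24992578, plus strand) had 17.7 and 20.96 CPM in GFP, 23.1 and 16.6 in YAP6SA, and 16.9 and 18.8 in YAP5SA, and its groups overlapped. The libraries carry no strand, and ambiguous reads are not in the gene counts. *Zyx* shares 236 exonic bases (4.38% of its exons) with *Epha1* on the other strand, so reads there may be missing from its count. *Epha1* had 4 to 24 counts per library. *Lpp* shares 82 exonic bases with *Lppos*, which had 238 to 381 counts.

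**Figure D2:**
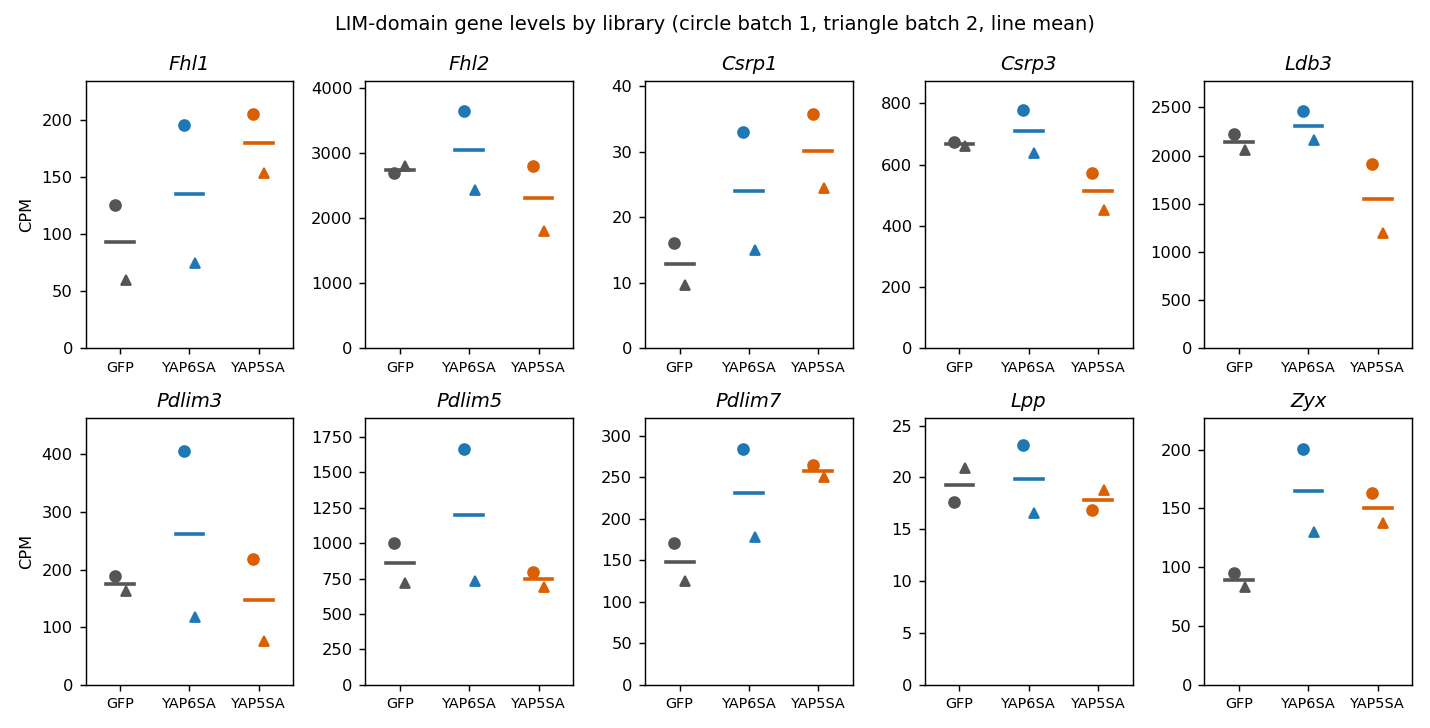
TMM-scaled CPM (vertical axis from 0, own scale for each gene) of the 10 LIM-domain genes in the GFP, YAP6SA and YAP5SA libraries, with circles for batch 1, triangles for batch 2 and lines for the mean of 2 libraries. *Pdlim7* and *Zyx* were higher in every YAP library than in either GFP library, and *Csrp3* and *Ldb3* were lowest in both YAP5SA libraries.

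YAP6SA OE CMs were compared with GFP CMs, which asks what activated YAP does when TEAD binding is lost. None of the 10 genes passed an FDR of 0.05 in edgeR's quasi-likelihood test with batch as a term, where 0.0450% of all genes tested did. The largest fold changes were those of *Zyx*, *Csrp1*, *Pdlim7* and *Fhl1*. *Zyx* was at a log2 fold change of 0.87 (SE 0.161, 95% interval 0.51 to 1.23, FDR = 0.224), with 1.081 in batch 1 and 0.64 in batch 2. *Csrp1* was at 0.85 (SE 0.221, FDR = 0.462), *Pdlim7* at 0.63 (SE 0.175, FDR = 0.513) and *Fhl1* at 0.49 (SE 0.213, FDR = 0.836). These 4 genes, and none in the lower direction, had an unadjusted p under 0.05, against 3.86% of all genes in the higher and 2.07% in the lower direction. The 10 mitochondrial genome mRNAs tested also had an unadjusted p under 0.05 here, all higher and none past the FDR, and their part in these values was not tested.

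The fitted values of all 10 genes in YAP6SA were above 0, with a median of 0.35 on the log2 scale against 0.00 over all genes. Markers of most other cell types also had positive values here. All 8 fibroblast markers tested did (median 0.32, 3 of them higher at an unadjusted p under 0.05). So did 10 of 11 smooth muscle and mural markers (median 0.23) and 6 of 7 macrophage markers (median 0.36). Of the epicardial markers 4 of 5 (median 0.25) and of the endothelial markers 6 of 8 (median 0.12) were positive. The 2 erythroid markers tested were negative (median -0.54), and the 10 CM markers had a median of -0.0027. The fibroblast markers summed to 1367 and 860 CPM in GFP and 1777 and 984 in YAP6SA, and the part of these levels in the values of the LIM-domain genes was not tested. For *Fhl2* (0.10), *Csrp3* (0.07), *Pdlim3* (0.29) and *Lpp* (0.04), the sign was positive in batch 1 and negative in batch 2. *Pdlim5* was at 0.41 (95% interval -0.12 to 0.93) and *Ldb3* at 0.11 (-0.38 to 0.59). The groups did not overlap for *Pdlim7* and *Zyx*, where 17.3% of all genes did not overlap in the higher and 17.0% in the lower direction. The calls depended on the fit. *Zyx* alone passed in edgeR's likelihood ratio test (FDR = 0.00281), in DESeq2 (FDR = 0.0107) and without the filter (FDR = 0.00043), none passed in limma-voom, and *Csrp1*, *Pdlim7* and *Zyx* passed when only the 4 GFP and YAP6SA libraries were fitted or when either YAP5SA library was left out. Over all genes, these fits called more as well, 82 of 13323 in the likelihood ratio test, 55 in DESeq2, 145 of 27396 without the filter, 236 of 12835 with 4 libraries, and 178 of 13458 and 216 of 13394 without YAP5SA replicate 1 and 2.

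**Figure D3:**
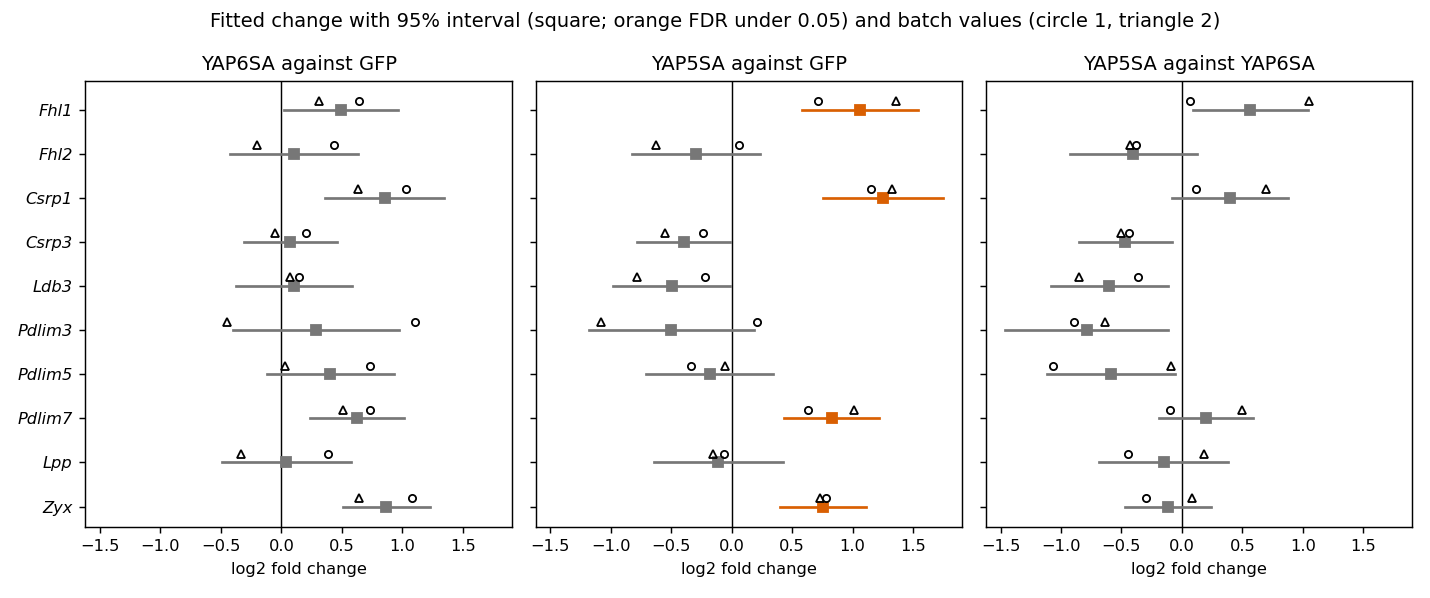
Log2 fold change (horizontal axis) of the 10 genes in the 3 comparisons, as fitted squares with 95% intervals from edgeR's quasi-likelihood fit, orange where the FDR was under 0.05, with open circles for batch 1 and open triangles for batch 2. *Csrp1* (1.25), *Fhl1* (1.06), *Pdlim7* (0.83) and *Zyx* (0.75) were called in YAP5SA against GFP, and no gene was called in the other comparisons.

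YAP5SA OE CMs were then compared with GFP CMs, which asks the same of YAP that keeps TEAD binding. *Csrp1*, *Fhl1*, *Pdlim7* and *Zyx* rose, by 1.7- to 2.4-fold, and no gene of the 10 passed the test in the lower direction. This was 4 of 10 higher, where 12.8% of all genes tested were called higher, 9.18% lower and 22.0% in either direction. *Csrp1* rose most, 2.38-fold (log2 fold change 1.25, SE 0.222, FDR = 0.00468), with 1.15 in batch 1 and 1.32 in batch 2. *Fhl1* rose 2.08-fold (1.06, SE 0.215, FDR = 0.00816), and its difference was smaller in batch 1 (0.71) than in batch 2 (1.36). *Pdlim7* rose 1.77-fold (0.83, SE 0.176, FDR = 0.0101), with 0.63 and 1.01 in the batches. *Zyx* rose 1.69-fold (0.75, SE 0.161, FDR = 0.0102), with 0.78 and 0.73.

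The other 6 genes had negative fitted values in YAP5SA that did not pass the test. *Ldb3* was at -0.50 (95% interval -0.98 to -0.01, FDR = 0.129) and *Csrp3* at -0.39 (-0.78 to -0.01, FDR = 0.129), and both had an unadjusted p under 0.05, as the 4 called genes had, against 17.0% of all genes in the lower and 19.4% in the higher direction. *Pdlim3* was at -0.50 (-1.18 to 0.18, FDR = 0.272), with 0.21 in batch 1 and -1.08 in batch 2. The likelihood ratio test, DESeq2 and limma-voom called none of the 10 genes lower either. Without the filter on low counts, *Ldb3* (FDR = 0.0149) and *Pdlim3* (FDR = 0.0367) passed edgeR's quasi-likelihood test, where 3510 of 27396 genes were called. Over the fits with a library left out, *Ldb3* ran from -0.76 to -0.23 and *Csrp3* from -0.52 to -0.25. Both passed in the lower direction without YAP5SA replicate 1, a fit that leaves 1 YAP5SA library. With all libraries, *Fhl2* was at -0.30 (-0.82 to 0.23), *Pdlim5* at -0.18 (-0.71 to 0.34) and *Lpp* at -0.11 (-0.65 to 0.42). The median of the 10 genes was -0.15, against 0.00 over all genes. The groups did not overlap for the 4 called genes, where 31.2% of all genes did not overlap in this direction, nor for *Csrp3* and *Ldb3*, where 29.7% did not in the lower direction.

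Without the batch term, the count of called genes fell from 4 to 1, *Zyx* (FDR = 0.0461), and the others were at an FDR of 0.0573 for *Pdlim7*, 0.0614 for *Csrp1* and 0.166 for *Fhl1*. That fit called 2090 of 13323 genes, against 2931 with the batch term, and the log2 fold changes of the 4 genes were 0.76 to 1.22. Without GFP replicate 2 the count was also 1, *Csrp1*, where 788 of 13432 genes were called and the log2 fold changes of the 4 genes were 0.79 to 1.31. Without GFP replicate 1, *Zyx* no longer passed, and *Pdlim3*, at -1.13, passed in the lower direction. Over the fits with a library left out, *Zyx* ran from 0.65 to 0.88. The 10 mitochondrial genome mRNAs tested were all called higher in this comparison. Of 11 smooth muscle and mural markers tested, 3 were called higher (*Myh11*, *Cnn1*, *Mcam*) and 2 lower (*Smtn*, *Abcc9*). The 12 markers listed summed to 1497 and 1707 CPM in GFP, 1535 and 1797 in YAP6SA, and 1235 and 988 in YAP5SA. Most of this sum came from *Smtn* and *Abcc9*, with a mean log2 CPM of 9.67 and 8.09 against 3.60 for *Myh11*. It thus mainly follows the markers called lower, and which cells the RNA of these markers came from was not tested. *Myh11*, which defines smooth muscle, was at 14.2 and 6.07 CPM in GFP, 14.0 and 7.09 in YAP6SA, and 21.3 and 16.5 in YAP5SA. The 6 epicardial markers summed to 42.3 and 32.1 CPM in GFP, 59.8 and 32.1 in YAP6SA, and 127 and 191 in YAP5SA, mostly through *Wt1*. Of the 5 tested in YAP5SA against GFP, *Wt1* and *Krt19* were called higher, and *Upk3b*, *Msln* and *Upk1b* were not called. The 9 macrophage markers summed to 66.8 and 94.9 CPM in GFP, 82.9 and 111 in YAP6SA, and 95.7 and 141 in YAP5SA, with 2 of the 7 tested called higher in YAP5SA. No marker was at 0 in all libraries, and the part of these levels in the changes of the LIM-domain genes was not tested. Fibroblast and endothelial markers, 8 of each, had 0 calls in edgeR's test in any comparison.

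YAP5SA and YAP6SA OE CMs were compared directly, since both comparisons above share the GFP libraries. None of the 10 genes passed, where 14.7% of all genes tested were called and 5.68% were called lower. *Fhl1* was higher in fitted value in YAP5SA (0.57, 95% interval 0.09 to 1.04, FDR = 0.105), with 0.07 in batch 1 and 1.05 in batch 2. The fitted values were negative for *Pdlim3* (-0.79, FDR = 0.11), *Ldb3* (-0.60, FDR = 0.0926), *Pdlim5* (-0.59, FDR = 0.126) and *Csrp3* (-0.47, FDR = 0.0971). These 5 genes had an unadjusted p under 0.05, 1 higher and 4 lower, against 16.4% and 14.5% of all genes.

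For the other genes called in YAP5SA, the direct difference between the variants had intervals that included 0. It was -0.11 for *Zyx* (95% interval -0.47 to 0.24), 0.20 for *Pdlim7* (-0.19 to 0.59) and 0.40 for *Csrp1* (-0.08 to 0.88). *Fhl2* was at -0.40 (-0.93 to 0.12) and *Lpp* at -0.15 (-0.69 to 0.38). *Csrp3* and *Ldb3* were the genes without overlap of the groups, both lower in YAP5SA, where 28.9% of all genes did not overlap in this direction and 28.6% in the other. Other tests called *Ldb3* (likelihood ratio test, FDR = 0.0293), *Ldb3* and *Pdlim3* (DESeq2, FDR = 0.0213 and 0.0497), or none (limma-voom). Without YAP5SA replicate 1 the count was 6, *Fhl1* and *Pdlim7* higher and *Fhl2*, *Csrp3*, *Ldb3* and *Pdlim3* lower, where 4098 of 13458 genes were called. Over the fits with a library left out, the log2 fold change ran from -1.18 to -0.27 for *Pdlim3*, 0.16 to 0.97 for *Fhl1* and -0.99 to -0.15 for *Pdlim5*.

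The other genes of these structures were counted from lists. Of 38 other LIM-domain genes tested, 11 were called higher and 5 lower in YAP5SA against GFP, where 12.8% and 9.18% of all genes were. *Lmcd1*, a LIM cofactor of cardiac transcription, rose by 2.73 on the log2 scale (SE 0.257, FDR = 0.000236), from 15.9 and 13.5 CPM in GFP to 79.0 and 116 in YAP5SA, and was at 16.4 and 11.0 in YAP6SA. *Pdlim2* rose by 2.74 (SE 0.588, FDR = 0.0105) from a low level of 3.79 and 1.96 CPM in GFP, and *Ajuba*, a zyxin relative that binds LATS kinases, by 1.74 (SE 0.274, FDR = 0.00261). All 3 were also higher in YAP5SA than in YAP6SA, by 2.83, 2.69 and 2.02. The median over the list was 0.09. Without GFP replicate 2, 5 were called higher and 1 lower, and without YAP5SA replicate 1, 9 were called lower.

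In YAP5SA against GFP, 12.8% of all genes were called higher and 9.18% lower. Of 29 other Z-disc genes tested, 4 were called higher and 7 lower in this comparison, with a median of -0.06. Without GFP replicate 2, 2 were called lower, and without YAP5SA replicate 1, 7 were called higher. *Ankrd1*, a titin-binding stress protein and TEAD target, rose by 2.35 on the log2 scale (SE 0.209, FDR = 0.0002), from 726 and 874 CPM in GFP to 3425 and 4814, with 1325 and 1596 in YAP6SA. *Neb* (nebulin) rose by 2.32 (SE 0.246, FDR = 0.000441) and *Synpo2* (myopodin) fell by 1.69 (SE 0.230, FDR = 0.00135). Against YAP6SA, *Mypn* (myopalladin) was lower by -1.37 on the log2 scale (FDR = 0.0102), and it had 341 CPM in YAP6SA of batch 1 against 129 in batch 2. Of 27 other adhesion genes tested, 8 were called higher and 2 lower, with a median of 0.23. Without GFP replicate 2, 2 were called higher and 0 lower, and the lower count was also 0 without the batch term and without YAP6SA replicate 1, YAP6SA replicate 2 or YAP5SA replicate 2. *Sorbs3* (vinexin) rose by 1.26 (FDR = 0.0102), with 0.67 in batch 1 and 1.75 in batch 2. The nonmuscle alpha-actinin *Actn1* rose by 1.17 (FDR = 0.0163), with 0.43 in batch 1 and 1.87 in batch 2.

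In YAP5SA against YAP6SA, 1199 of all 13323 genes tested were called higher and 757 lower. Of the LIM-domain genes, 9 were called higher and 4 lower in this comparison. For the Z-disc genes the counts were 4 and 5, and for the adhesion genes 8 and 1. Without YAP6SA replicate 2 these counts were 5 and 0, 2 and 1, and 0 and 0, and without YAP5SA replicate 1 the lower counts were 11, 13 and 4. In YAP6SA against GFP, 0 genes of these 3 lists were called by edgeR's quasi-likelihood test, where 0.0450% of all genes were. At an unadjusted p under 0.05 there were 4 higher among the other LIM-domain genes, 4 higher and 2 lower among the Z-disc genes, and 2 higher among the adhesion genes. Over all genes, 3.86% were higher and 2.07% lower at this p. The likelihood ratio test and DESeq2 each called 1 Z-disc gene.

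**Figure D4:**
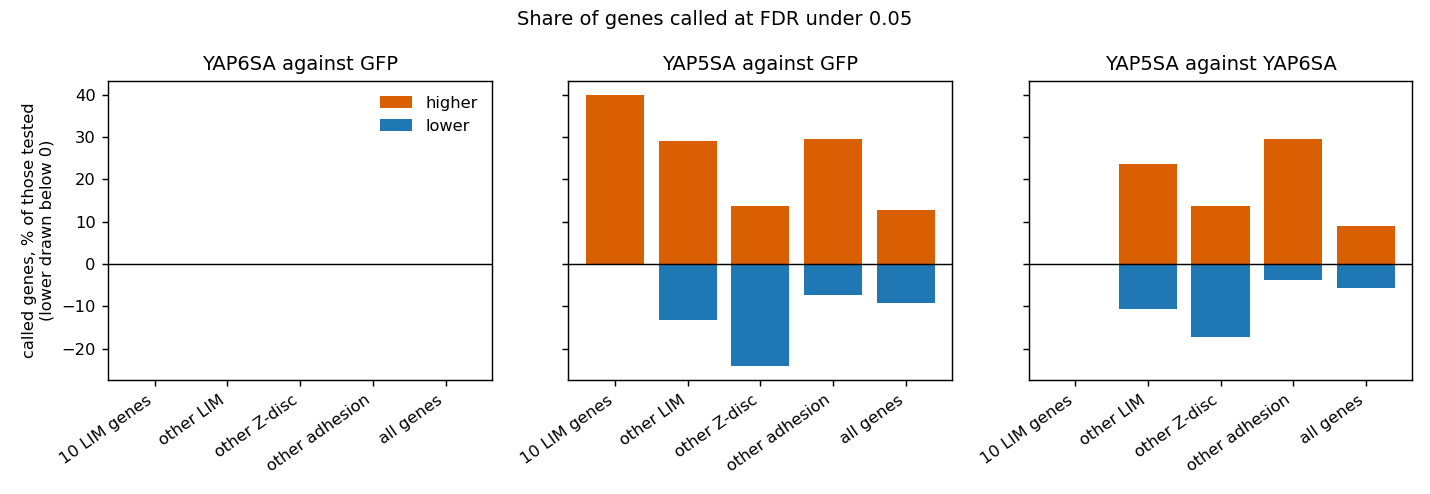
Share of tested genes called at FDR under 0.05 (vertical axis in %, higher above 0 and lower below) for the 10 LIM-domain genes, the 3 lists of other genes and all genes tested, in the 3 comparisons. In YAP5SA against GFP, 12.8% of all genes were higher and 9.18% lower. In YAP6SA against GFP, 0 of the 10 genes and 0 genes of the 3 lists were called. The share over all genes there, 0.0450%, is too small to see.

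For the 4 genes called, the genes with the nearest pattern were sought over the 4 within-batch log2 differences from GFP, among 9909 genes whose mean log2 CPM reached 3. These differences share the GFP libraries. The nearest to *Fhl1* were *Rplp1* (Euclidean distance 0.0924 on the log2 scale) and *Lgals1* (0.117). For *Pdlim7* they were *Lims2* (0.142) and *Prkab2* (0.177), for *Zyx* *Ctla2a* (0.235) and *Coq10b* (0.241), and for *Csrp1* *Dusp8* (0.28) and *Myadm* (0.303).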

How the data were processed

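Raw counts per gene were deposited, with 1 column for each library and without normalization, after mapping by the authors in STAR (mm10, Ensembl GRCm38.94). Versions are not given in the sources used here. Unmapped (3.03% to 3.63% of reads), multimapping (2.9% to 4.19%), non-genic (9.43% to 9.84%) and ambiguous reads (5.79% to 6.31%) are not in the gene counts. Of 54532 genes, 37 had no name in the annotation.

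Genes with a median log2 CPM over 1 in at least 1 group were kept, as the methods of the study state. The edgeR 4.0.16 package (R 4.3.3) fitted all 6 libraries together (TMM, quasi-likelihood, terms for group and batch), with Benjamini-Hochberg FDR over 13323 genes and a threshold of 0.05. In YAP6SA against GFP this fit called 6 genes, far fewer than the study reports for YAP6SA at the same FDR. The reason for this difference was not tested. CPM are scaled by TMM. The script was tested on simulated data. The labelled batch number equals the replicate number and pairs the libraries. The deviations from group means of the same batch correlated at 0.368, 0.0985 and 0.175 across genes for GFP and YAP6SA, GFP and YAP5SA, and YAP6SA and YAP5SA. No library was a copy of another. Alternatives were other scalings (RLE, upper quartile), no filter on low counts, a minimum of 10 counts per library, the likelihood ratio test, DESeq2 1.42.0, limma-voom (limma 3.58.1), no batch term, only the 4 libraries compared, and each library left out.

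The genes, lists and tests were chosen with earlier results of these data known. Besides the 10 genes, up to 3 genes per list and comparison are named, those with the largest change among genes past the threshold with the same sign in each batch and a mean log2 CPM of 1 or more. One gene that this rule names is not reported here. Marker lists were CM, smooth muscle and mural, fibroblast, endothelial, macrophage, epicardial and erythroid genes and mitochondrial genome mRNAs. The 5 erythroid markers summed to 24.8 to 64.0 CPM, with 0 calls in edgeR's test.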

Additional observations from a re-analysis of the deposited data

Results flagged for a closer look

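In 9 of the 30 pairs of gene and comparison, the log2 difference had opposite signs in the batches, each batch holding 1 library per group. These differences between batches were not tested, and a test for outlying libraries needs at least 4 libraries in a group. In YAP6SA against GFP, *Pdlim3* was at 1.11 in batch 1 and -0.45 in batch 2, *Fhl2* at 0.434 and -0.198, *Lpp* at 0.385 and -0.333, and *Csrp3* at 0.205 and -0.0499. In YAP5SA against GFP, *Pdlim3* was at 0.209 and -1.08 and *Fhl2* at 0.0582 and -0.629. In YAP5SA against YAP6SA, *Pdlim7* was at -0.103 and 0.499, *Lpp* at -0.449 and 0.18, and *Zyx* at -0.301 and 0.0842. For *Pdlim3* and *Fhl2*, the batch 1 value was the higher in both comparisons with GFP, which share the GFP libraries. The batch term was called for 27 of 13323 genes and for none of the 10 LIM-domain genes, with *Pdlim3* at -1.17 (FDR = 0.121) and *Fhl1* at -0.96 (FDR = 0.0771) for batch 2 against batch 1 in edgeR's fit.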

How the results depend on the processing

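With 2 libraries per group, the count of called LIM-domain genes moved with the fit. In YAP6SA against GFP it was 0, and 1 with no filter, with the likelihood ratio test or with DESeq2, 3 with only the 4 libraries compared, and 0 to 3 with a library left out (3 without either YAP5SA replicate). In YAP5SA against GFP it was 4, and 6 with no filter (with *Ldb3* and *Pdlim3* lower) and 1 without the replicate block (no batch term). With a library left out it was below 4 without GFP replicate 2 and above 4 without YAP5SA replicate 1. In YAP5SA against YAP6SA it was 0, and 5 with no filter, 1 with the likelihood ratio test, 2 with DESeq2, 1 with only the 4 libraries compared, and 0 to 6 with a library left out. These fits also differed in how many of all genes they called. In YAP5SA against GFP that was 2931 of 13323, 3510 of 27396 with no filter and 2090 of 13323 without the replicate block. The counts alone thus do not tell a change in the 10 genes from a fit that calls more or fewer genes. The cause was not tested. Leaving out a library leaves 1 in its group, which is then assumed to vary like the others. Of 450 refitted log2 fold changes, 388 kept their direction and their side of the threshold, 7 lost the call, 36 gained one and 19 changed sign, all 19 with a library left out. With a library left out, these ran in YAP6SA against GFP from -0.21 to 0.45 for *Fhl2*, -0.064 to 0.22 for *Csrp3*, -0.047 to 0.28 for *Ldb3*, -0.38 to 1.04 for *Pdlim3*, -0.042 to 0.79 for *Pdlim5* and -0.32 to 0.36 for *Lpp*. In YAP5SA against GFP they ran from -0.60 to 0.049 for *Fhl2*, -1.14 to 0.28 for *Pdlim3*, -0.51 to 0.11 for *Pdlim5* and -0.29 to 0.11 for *Lpp*. In YAP5SA against YAP6SA they ran from -0.037 to 0.45 for *Pdlim7*, -0.47 to 0.21 for *Lpp* and -0.31 to 0.099 for *Zyx*. No scaling alternative changed a sign. Without the replicate block, the other comparisons also had 0 calls among the 10 genes. In the other lists, 217 alternative counts stayed within 1.5 times the reported one and 53 did not. In YAP5SA against GFP, the counts of higher and lower calls ran from 5 to 12 and 1 to 9 for LIM-domain genes (reported 11 and 5), 3 to 7 and 2 to 9 for Z-disc genes (4 and 7), and 2 to 10 and 0 to 3 for adhesion genes (8 and 2). In YAP5SA against YAP6SA they ran from 5 to 9 and 0 to 11 (9 and 4), 2 to 7 and 1 to 13 (4 and 5), and 0 to 9 and 0 to 4 (8 and 1). In YAP6SA against GFP they reached at most 1, 3 and 2 higher and 0 lower.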
